A study of Mus musculus with 30 samples.

Results

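The comparison set the change that accompanies CD48 on progenitors against the change that bone marrow stem cells carry 10 days after 5-fluorouracil (5-FU), gene by gene. Each gene has a CD48+ effect, the log2 change of CD150+CD48+HPC libraries over CD150+CD48-HSC libraries, and a day-10 effect, the log2 change of 5-FU_10_days libraries over Untreated libraries. The difference of the 2 effects is the first minus the second, so a positive value marks a CD48+ effect above the day-10 effect. It can come from a rise with CD48, from a fall at day 10 or from both, and does not by itself mean a higher level in CD48+ HPCs. All genes with enough reads entered, 13209 of the 46113 gene identifiers in the files, and they were measured in 18 of the series' 30 samples. No sample is shared between the 2 effects.

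The study sequenced RNA of sorted mouse bone marrow cells, 100 cells per library, after 5-FU or after 1 day of culture. All 4 groups here came from C57BL/6 bone marrow, at 8 to 10 weeks of age. Untreated (4 libraries) and 5-FU_10_days (6 libraries) are hematopoietic stem cells (HSCs) sorted as CD150+, CD48-, EPCR+ and lineage-negative, the first from mice without 5-FU and the second from mice 10 days after it. CD150+CD48-HSC (4 libraries) carry the same surface description and the same 10 days after 5-FU, but belong to the other experiment, together with CD150+CD48+HPC (4 libraries), progenitors that differ in the sort by CD48 alone. Both members of the CD48 comparison therefore had the 5-FU exposure, and only 1 member of the day-10 comparison had it. The labels do not say from how many animals the cells were pooled, or whether replicates are separate animals, so p-values measure the spread between these libraries, which may be technical.

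5-FU is an antimetabolite that kills dividing cells, and stem cells that survive it divide and rebuild the marrow before they return to rest. CD48 is a surface receptor of the SLAM family that is low on mouse HSCs and appears on progenitors that have begun to differentiate, while CD150 (Slamf1) and EPCR (Procr) mark the stem cell end. Both passages are accompanied by cell division, which makes the genes that move differently in the 2 of interest for telling differentiation from regeneration.

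The sort genes were read first. Cd48 was at 1.88, 1.28, 5.07 and 4.01 CPM (reads of a gene scaled to the size of the library) in CD150+CD48-HSC replicates 1 to 4 and at 53.3, 56.7, 49.8 and 45.5 CPM in CD150+CD48+HPC. It was at 0.623, 0.164, 0.925 and 0 CPM in Untreated and between 2.06 and 6.08 CPM (median 3.59) at day 10. Its difference of effects was 0.94 ± 0.85 (log2, SE; edgeR adjusted p = 0.564), since both effects were positive. Slamf1, the gene of CD150, was at 44.3, 57.2, 65.9 and 52.2 CPM in CD48- HSCs and at 30.8, 27.9, 27.3 and 30.7 CPM in CD48+ HPCs. Slamf1 ran from 26.8 to 35.6 CPM in Untreated and from 45.2 to 55.6 CPM (median 50.5) at day 10, so that neither pair of groups overlapped, and its 2 effects had opposite signs. Procr fell in CD48+ HPCs, from 61.1 to 95.5 CPM down to 39.6 to 50.8 CPM, with no called change at day 10. Its difference of -0.88 ± 0.25 (adjusted p = 0.0376) lost the call without any of 12 of the 18 libraries, the exceptions being 5-FU_10_days replicates 1, 4 and 6, CD150+CD48-HSC replicate 4 and CD150+CD48+HPC replicates 2 and 4.

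Exon reads per library numbered 5208722 to 6862215 in Untreated, 6473824 to 8806027 at day 10, 7054789 to 10181010 in CD48- HSCs and 9115895 to 12243208 in CD48+ HPCs. The summed level of 8 erythroid markers was 2402 to 6355 CPM in Untreated and 9345 CPM in CD150+CD48-HSC replicate 3, against 237.4 to 1447 CPM in the other libraries. Another 8 markers, of macrophages, summed to 128.2 to 1002 CPM in CD48+ HPCs and to 32.38 to 267.7 CPM elsewhere, and 10 myeloid markers reached 2392 CPM in Untreated replicate 3. In 5-FU_10_days replicate 3, 4 stromal markers summed to 396.8 CPM. Of 9 lymphoid markers, Trbc1, Ighm and Igkc were at 0 in all 18 libraries. The part of these transcripts in the results was not tested, other than by leaving out replicate 3 of each group, as given below. That setting kept other libraries with raised sums, among them Untreated replicate 1 (erythroid, 6355 CPM) and CD150+CD48+HPC replicate 1 (macrophage, 382.4 CPM). In sorted bulk samples, fewer cells of a type and less RNA per cell cannot be told apart. Intron reads were 65.1% ± 1.28 (SD, n = 4) of reads on genes in Untreated, 60.1% ± 1.79 (n = 6) at day 10, 63.6% ± 2.34 (n = 4) in CD48- HSCs and 59.7% ± 1.63 (n = 4) in CD48+ HPCs. By two-sided exact permutation tests p was 0.00952 for day 10 (the smallest possible is 0.00476) and 0.0571 for CD48 (the smallest possible is 0.0286).

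The difference was called, at an edgeR quasi-likelihood adjusted p under 0.05, for 947 genes or 7.17% of those tested. Of these, 365 genes (2.76%) were higher in the CD48+ effect and 582 (4.41%) were lower. At least 2-fold differences were found for 168 of the first and 320 of the second. The CD48+ effect alone rose for 1861 genes (14.1%) and fell for 1703 (12.9%), and the day-10 effect rose for 2408 (18.2%) and fell for 2117 (16.0%). Of 1918 genes called in both, 1800 moved the same way, 1003 up and 797 down, and 118 moved in opposite directions. Across all genes the 2 effects had a Pearson r of 0.362 and a Spearman rho of 0.478, given as a description since genes are not independent replicates. The median SE of the difference was 0.222 on the log2 scale, and the smallest difference called was 0.32. At an unadjusted p under 0.05 there were 2866 genes.

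**Figure D1:**
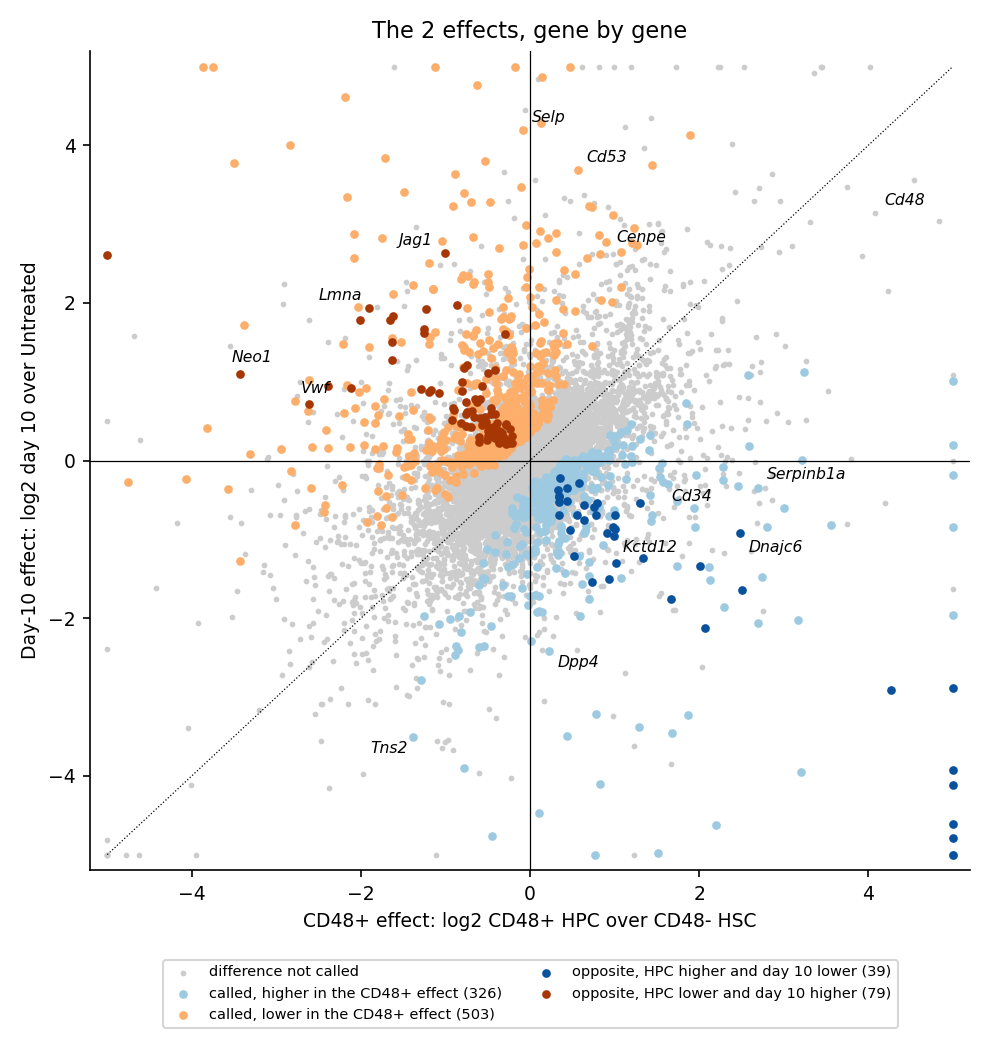
Each point is 1 of 13209 genes, with the CD48+ effect (log2, CD150+CD48+HPC over CD150+CD48-HSC) on the x axis and the day-10 effect (log2, 5-FU_10_days over Untreated) on the y axis, and points beyond the axes drawn at the edge. Blue points are the 365 genes with a difference called higher, below the dotted diagonal of equal effects, and orange points the 582 called lower, above it. The darker points are the 39 and 79 genes moved in opposite directions.

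Where the difference came from varied between genes in both directions. Among the 365 higher genes, 157 fell at day 10 with no called CD48+ effect, 133 rose in CD48+ HPCs with no called day-10 effect, and 39 did both. A further 17 fell in both, 8 rose in both and 11 were called in neither effect. Among the 582 lower genes, 282 rose at day 10 only, 187 fell in CD48+ HPCs only and 79 did both. Another 19 rose in both, 9 fell in both and 6 were called in neither. Without CD150+CD48+HPC replicate 1 the total was 618 genes, 209 of them higher, the CD48+ effect was called for 2323 genes and 78 genes were opposite. Without replicate 3 of each group together 480 were called, as 173 higher and 307 lower.

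The 79 genes that rose at day 10 and fell in CD48+ HPCs, 0.598% of all genes, had median effects of 0.59 at day 10 and -0.60 with CD48. Of them, 12 moved at least 2-fold in both, and 62 reached 32 CPM in at least 1 group. In 38 of the 79, libraries of the paired groups did not overlap in either comparison, a pattern that 58 genes had in all (0.439%). Without CD150+CD48+HPC replicate 1, 55 such genes were called, and without replicate 3 of each group 46.

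Neo1 (chr9:58874679-59037162, mm10) encodes neogenin, a receptor for netrins and repulsive guidance molecules. It was at 137, 154, 217 and 136 CPM in CD48- HSCs and at 14.4, 14.2, 19.6 and 11.4 CPM in CD48+ HPCs. In Untreated it was at 71.2, 38.8, 36.5 and 49.8 CPM, and at day 10 between 48.3 and 226 CPM (median 96.5). The CD48 groups lay far apart, while day 10 and Untreated overlapped at the low end of day 10. The CD48+ effect was -3.43 ± 0.39 (adjusted p = 1.45e-05), the day-10 effect 1.10 ± 0.34 (adjusted p = 0.0177) and the difference -4.53 ± 0.52 (adjusted p = 2.95e-05).

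Vwf (chr6:125552935-125686679), which encodes von Willebrand factor, the adhesive glycoprotein of platelets and endothelium, was much more abundant. It was at 666, 947, 809 and 1028 CPM in CD48- HSCs against 146, 114, 145 and 159.9 CPM in CD48+ HPCs. Untreated HSCs held 506, 585, 492 and 589.6 CPM, and day-10 HSCs 576 to 1244 CPM (median 885). CD48+ HPCs were thus below all HSC libraries, Untreated included. The effects were -2.61 ± 0.19 and 0.71 ± 0.16, with a difference of -3.32 ± 0.25 (adjusted p = 8.31e-08). Vwf was chosen for print after its values were seen.

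Jag1 (chr2:137081451-137116520), a Notch ligand, was at 21.8, 16.9, 9.99 and 15.7 CPM in Untreated and at 86.9 to 138 CPM (median 92.7) at day 10. It was at 106, 89.8, 139.8 and 111 CPM in CD48- HSCs and at 62.8, 52.0, 46.7 and 60.9 CPM in CD48+ HPCs. Neither pair of groups overlapped, and CD48+ HPCs kept levels above every Untreated library. Its larger part was the day-10 effect, 2.63 ± 0.19, beside a CD48+ effect of -1.004 ± 0.18 and a difference of -3.64 ± 0.26 (adjusted p = 6.68e-08).

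Chains of basement membrane collagens were among the 79. Col4a1 and Col4a2, the chains of the main type IV collagen, start 21 bases apart on chromosome 8 and are read in opposite directions (chr8:11198423-11312826, minus strand, and chr8:11312805-11449287, plus strand). Whether reads were counted by strand is not given in the sources used here, so reads in the few shared bases could belong to either. Col4a1 was at 145, 131, 127 and 115 CPM in Untreated, 264 to 356 CPM (median 293) at day 10, 291, 291, 309.7 and 304 CPM in CD48- HSCs and 185, 190.0, 167 and 168 CPM in CD48+ HPCs. Col4a2 was at 189.7, 147, 129 and 156 CPM, 289 to 328 CPM (median 306), 343, 329.5, 328 and 309 CPM, and 189, 199, 178 and 181 CPM in the same groups. For both genes the groups did not overlap in either comparison, and the spread within each group was narrow. The difference was -1.97 ± 0.13 for Col4a1 (adjusted p = 3.92e-08) and -1.80 ± 0.13 for Col4a2 (adjusted p = 4.84e-08). Both were chosen after their values were seen. Col18a1, the chain of collagen XVIII, ran from 6.48 to 13.7 CPM in Untreated, 28.5 to 48.3 CPM at day 10, 33.2 to 56.5 CPM in CD48- HSCs and 19.96 to 27.5 CPM in CD48+ HPCs, with a difference of -2.83 ± 0.30 (adjusted p = 1.06e-05).

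Growth factor genes were among the 79 as well. Csf1, which encodes macrophage colony-stimulating factor, was at 45.1, 38.7, 46.4 and 34.1 CPM in CD48- HSCs and at 15.3, 22.2, 17.6 and 17.7 CPM in CD48+ HPCs. It ran from 17.0 to 34.9 CPM in Untreated and from 29.9 to 64.5 CPM (median 46.1) at day 10, with overlap in that pair only. Its difference was -2.07 ± 0.32 (adjusted p = 0.000589). Nrg4, a ligand of the ErbB4 receptor, was lower in CD48+ HPCs (8.80 to 17.3 CPM) than in CD48- HSCs (20.2 to 26.4 CPM) and higher at day 10 (26.6 to 63.8 CPM) than in Untreated (13.6 to 25.2 CPM), with a difference of -1.93 ± 0.36 (adjusted p = 0.00313).

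Nuclear and junction proteins completed the named set. Lmna, which encodes the A-type lamins of the nuclear envelope, was at 27.4, 62.4, 48.1 and 64.0 CPM in CD48- HSCs and at 17.9, 8.54, 12.3 and 15.2 CPM in CD48+ HPCs, against 1.30 to 14.96 CPM in Untreated and 10.8 to 55.6 CPM at day 10. The difference was -3.84 ± 0.70 (adjusted p = 0.00249). Esam, an adhesion molecule of endothelial junctions and HSCs, was at 206 to 243 CPM in CD48- HSCs, 103 to 152 CPM in CD48+ HPCs, 116 to 165 CPM in Untreated and 193 to 222 CPM at day 10, with no overlap in either pair. Its difference was -1.35 ± 0.15 (adjusted p = 2.61e-05). Hdac9, a class IIa histone deacetylase, differed by -1.70 ± 0.36 (adjusted p = 0.007), and its CD48 groups overlapped. Clca3a1, a member of the chloride channel accessory family, differed by -3.44 ± 0.60 (adjusted p = 0.0017), and its day-10 and Untreated groups overlapped. All genes named in these 6 paragraphs kept the call of their difference without each of the 18 libraries in turn.

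**Figure D2:**
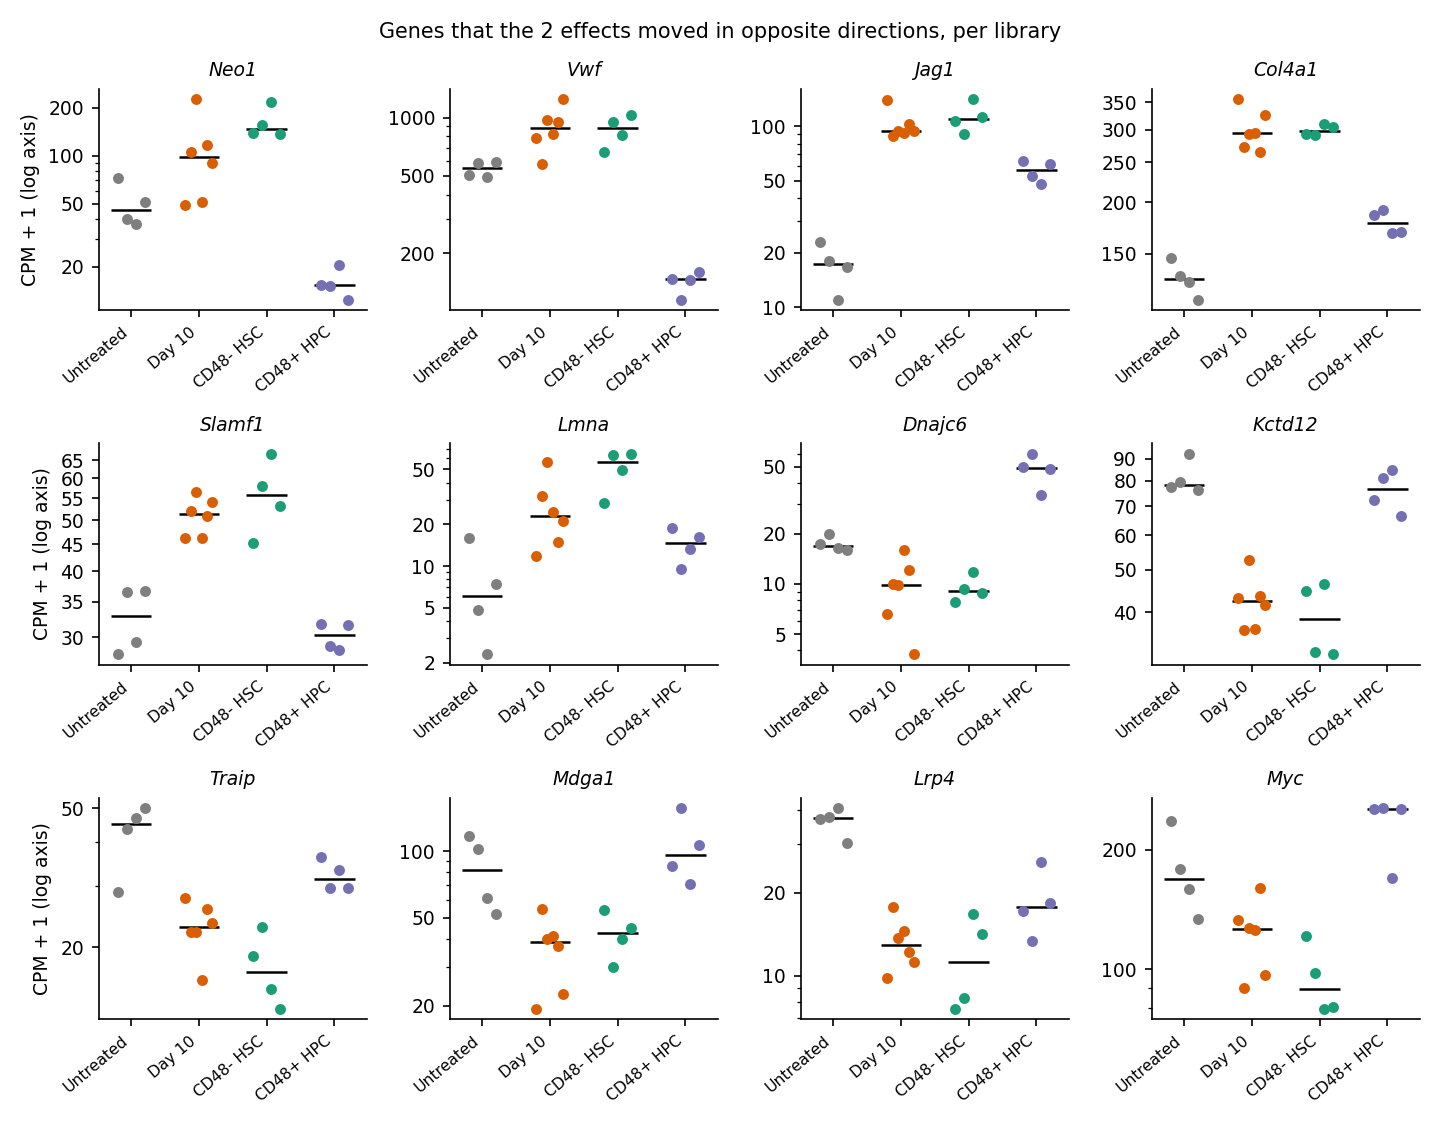
Expression of genes moved in opposite directions, as CPM + 1 on a log axis, with 1 point per library and a line at the median of each of the 4 groups. From Neo1 to Lmna the median of day 10 lies above Untreated and that of CD48+ HPCs below CD48- HSCs, and from Dnajc6 to Myc both orders are turned round.

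The 39 genes that rose with CD48 and fell at day 10, 0.295% of all genes, had median effects of 0.93 and -0.88. Of these, 13 moved at least 2-fold in both and 20 reached 32 CPM in a group. Several of the 13 were near the detection limit in at least 1 group, and some falls at day 10 rested on 1 Untreated library. Ikzf3 was at 6.08 CPM in Untreated replicate 1 and at 0 in all other Untreated, day-10 and CD48- HSC libraries. Rab44 was at 17.6 CPM in Untreated replicate 3, at most 0.779 CPM in the other Untreated libraries and at most 0.936 CPM at day 10. Others of the 13 were better expressed, such as Mdga1, given below, and Hnf4a and Cd72, chosen after their values were seen. Mean CPM in Untreated, day 10, CD48- HSCs and CD48+ HPCs were 23.2, 5.30, 7.05 and 29.7 for Hnf4a. They were 12.8, 3.75, 3.16 and 10.1 for Cd72, which did not overlap in either comparison. No overlap in both comparisons was found for 17 of the 39, of 27 genes with that pattern in all (0.204%). The count was 24 without CD150+CD48-HSC replicate 1, 23 without CD150+CD48+HPC replicate 1, 23 without 5-FU_10_days replicates 4 and 6 together, and 17 without replicate 3 of each group.

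Dnajc6 (chr4:101496022-101642799) encodes auxilin, which helps to uncoat clathrin vesicles. It was at 49.1, 59.1, 33.0 and 47.8 CPM in CD48+ HPCs and at 6.80, 8.29, 10.8 and 7.88 CPM in CD48- HSCs. Untreated libraries held 16.2, 18.9, 15.4 and 15.03 CPM, and day-10 libraries 2.79 to 14.97 CPM (median 8.91). CD48+ HPCs exceeded every other library, and day 10 lay below Untreated, if narrowly. The effects were 2.48 ± 0.32 and -0.92 ± 0.29, with a difference of 3.40 ± 0.43 (adjusted p = 7.92e-05).

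Kctd12 (chr14:102976581-102982637), an auxiliary subunit of GABA-B receptors, was nearly symmetric. It was at 76.5, 78.4, 91.4 and 75.3 CPM in Untreated and 35.4 to 51.7 CPM (median 41.4) at day 10. CD48- HSCs held 43.6, 31.4, 45.3 and 30.96 CPM and CD48+ HPCs 71.2, 80.4, 83.7 and 65.6 CPM, so that the CD48+ HPC and Untreated libraries shared 1 range and both 10-day HSC groups shared another. The effects were 0.99 ± 0.14 and -0.96 ± 0.13, and the difference was 1.95 ± 0.19 (adjusted p = 3.9e-06).

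Myc (chr15:61985341-61990361), the transcription factor that drives growth and ribosome production, was at 253, 254, 169 and 252 CPM in CD48+ HPCs and 120.4, 96.9, 78.5 and 79.3 CPM in CD48- HSCs. In Untreated it was at 236, 178, 159 and 133 CPM, and at day 10 between 88.5 and 159 CPM (median 126). The CD48 groups did not overlap, while day 10 and Untreated did. The effects were 1.31 ± 0.20 and -0.54 ± 0.18, and the difference was 1.85 ± 0.26 (adjusted p = 0.00029).

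Other named genes of this direction included regulators of replication and development. Traip, a ubiquitin ligase that acts at replication forks, was at 28.5 to 35.4 CPM in CD48+ HPCs, 12.3 to 21.9 CPM in CD48- HSCs, 15.1 to 26.7 CPM at day 10 and 27.7 to 49.1 CPM in Untreated, with a difference of 1.82 ± 0.26 (adjusted p = 0.000306). Trps1, a GATA-type zinc finger repressor, was at 32.4 to 41.4 CPM with CD48, 16.1 to 26.6 CPM in CD48- HSCs, 14.2 to 25.3 CPM at day 10 and 30.4 to 38.1 CPM in Untreated, with a difference of 1.39 ± 0.24 (adjusted p = 0.00136). Neither gene overlapped in either pair. Lrp4, a co-receptor of agrin and an inhibitor of Wnt signalling, fell from 29.2 to 39.6 CPM in Untreated to 8.82 to 16.7 CPM at day 10 and differed by 2.27 ± 0.35 (adjusted p = 0.00059), with overlap between the CD48 groups. Mdga1, a membrane-anchored immunoglobulin family protein, differed by 2.57 ± 0.43 (adjusted p = 0.00119), with overlap between day 10 and Untreated.

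Levels of these genes were also set side by side across the 2 experiments, as group means on the log2(CPM + 1) scale, where the pseudocount of 1 CPM draws genes under a few CPM together whatever their ratio. On that scale the median of CD48- HSCs over day-10 HSCs was 0.08 for the 79 genes of the first direction and -0.08 for the 39 of the second. The median of CD48+ HPCs over Untreated was 0.03 and 0.05. These levels cross the 2 experiments, and the choice of genes called in both effects with opposite sign bears on the second ratio. In intron reads of the same libraries, both signs were kept for 69 of 77 and 33 of 35 genes that had enough reads. As the genes were chosen by their signs in exon reads of these libraries, this is not a separate test.

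The culture experiment gave independent libraries in which to look at the same genes. There, 29.7% of all genes tested rose after 1 day in culture and 34.3% fell. Of the 79 genes higher at day 10 and lower with CD48, 15 rose in culture and 38 fell (48.1%). Of the 39 genes of the other direction, 3 rose (7.69%) and 18 fell (46.2%). Falls were thus more frequent than over all genes in both sets, and the shares were not tested against each other.

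Of the genes named by rule whose difference came from day 10 alone, Selp had the lowest difference after Cxcl10. Selp is the gene of P-selectin, a receptor for leukocyte rolling stored in platelets and endothelium. It was at 10.4, 17.4, 29.4 and 24.0 CPM in Untreated and at 267 to 516 CPM (median 365) at day 10. Values were 313, 274, 306 and 257 CPM in CD48- HSCs and 249, 329, 228 and 279 CPM in CD48+ HPCs. All 14 libraries taken 10 days after 5-FU were far above Untreated and overlapped each other. The day-10 effect was 4.19 ± 0.24, the CD48+ effect -0.08 ± 0.21 (adjusted p = 0.81) and the difference -4.27 ± 0.32 (adjusted p = 8.11e-08). Gem, a small GTPase, followed the same course, with 12.5 to 29.0 CPM in Untreated and 68.6 to 389 CPM at day 10, and a difference of -3.58 ± 0.54 (adjusted p = 0.00047).

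Other genes, 19 in all, rose in both with a difference called lower. Cd53, a tetraspanin of leukocytes, was at 14.8, 20.7, 24.1 and 12.7 CPM in Untreated, 176 to 319 CPM (median 217) at day 10, 233, 168, 229 and 189 CPM in CD48- HSCs and 303, 333, 285 and 289 CPM in CD48+ HPCs. Each pair of groups was apart. The effects were 3.69 ± 0.19 and 0.57 ± 0.17, with a difference of -3.12 ± 0.25 (adjusted p = 2.14e-07).

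Of 42 adhesion and homing genes tested, 11 had a difference called lower and 2 called higher, beside 4.41% and 2.76% of all genes, with a median of -0.06 beside -0.01 over all genes. The 11 differed in origin. Selp, Itgb2 and Pecam1 rose at day 10 only, Jam2 and Jam3 fell with CD48 only, Esam, Itga5, Cd44 and Cd9 did both, and Cd53 was among those that rose in both effects. Of 33 cytokine and growth factor receptors, 9 were called lower and 4 higher, with a median of -0.42, to be read beside the same shares of all genes. Ifngr2, a chain of the interferon gamma receptor, was at 24.98 to 32.6 CPM in Untreated and 58.8 to 74.1 CPM at day 10, with a CD48+ effect of 0.09 ± 0.11 (adjusted p = 0.597) and a difference of -1.03 ± 0.15 (adjusted p = 0.00043). Il6st, the signalling receptor shared by the IL6 cytokine family, rose to 131 to 195 CPM at day 10 from 113 to 132 CPM and fell to 96.4 to 127 CPM in CD48+ HPCs from 148 to 155 CPM (difference -0.86 ± 0.14, adjusted p = 0.000959). Of 18 endothelial genes, 6 were called lower (4.41% of all genes were), with a median of -0.82, and 7 of the 18 rose at day 10 (18.2% of all genes did). Levels of 5 endothelial markers stayed between 24.06 and 64.35 CPM as a sum in all libraries.

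Dpp4 fell at day 10 and had a CD48+ effect of 0.22 ± 0.21 (adjusted p = 0.46). It encodes a dipeptidyl peptidase that trims chemokines such as Cxcl12. It was at 57.3, 57.5, 68.1 and 54.4 CPM in Untreated and at 6.18 to 14.4 CPM (median 11.7) at day 10. Values were 14.1, 14.4, 25.2 and 13.3 CPM in CD48- HSCs and 18.8, 19.1, 21.6 and 18.6 CPM in CD48+ HPCs, which overlapped. The difference was 2.64 ± 0.28 (adjusted p = 1.37e-05). Tns2, a focal adhesion protein, fell in both effects. It was at 142 to 226 CPM in Untreated and at 4.06 to 37.3 CPM at day 10. With CD48 it fell from 12.5 to 19.2 CPM in CD48- HSCs to 5.39 to 6.65 CPM in CD48+ HPCs (-1.38 ± 0.43, adjusted p = 0.023). As the day-10 fall was larger, the difference was positive, 2.12 ± 0.56 (adjusted p = 0.0257). Leaving out Untreated replicate 4 or CD150+CD48-HSC replicate 1 ended that call, at an adjusted p of up to 0.0546.

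Stem cell genes were among the falls with CD48 alone. Of 50 HSC identity genes, 37 fell and 1 rose in CD48+ HPCs, while 24 fell and 4 rose at day 10. The 1 that rose with CD48 was Cd34, which is given below as a progenitor antigen. Not all of those that fell with CD48 were flat at day 10. Of the list, 3 genes fell with CD48 and rose at day 10, Esam among them. Over all genes 12.9% fell with CD48 and 16.0% at day 10. The difference was called lower for 15 and higher for 2, beside 4.41% and 2.76% of all genes. Its median was -0.23, and 0.03 without replicate 3 of each group. Mecom, a zinc finger transcription factor needed for HSC maintenance, was at 432, 456, 498 and 511 CPM in Untreated, 422 to 562 CPM (median 449) at day 10, 524, 456, 531 and 511 CPM in CD48- HSCs and 225, 227, 299.8 and 226 CPM in CD48+ HPCs. All 14 HSC libraries shared 1 range and only the CD48+ libraries were below it. The day-10 effect was 0.00 ± 0.10 and the difference -1.05 ± 0.15 (adjusted p = 0.00029).

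Fgd5, an exchange factor for Cdc42 used to mark HSCs, was at 326, 304, 349.5 and 358 CPM in CD48- HSCs and 109, 142, 129.6 and 124 CPM in CD48+ HPCs, with a day-10 effect of -0.25 ± 0.11 (adjusted p = 0.0919) and a difference of -1.16 ± 0.17 (adjusted p = 0.00029). Mllt3, a chromatin reader of the super elongation complex, was at 321 to 428 CPM in CD48- HSCs and 146 to 188 CPM in CD48+ HPCs, with a difference of -1.02 ± 0.17 (adjusted p = 0.00122). Ctnnal1, an alpha-catenin relative, had the smallest p for the difference in this list, from 60.4, 64.4, 66.8 and 63.6 CPM to 20.2, 20.4, 20.5 and 23.7 CPM with CD48, and a difference of -1.70 ± 0.18 (adjusted p = 1.41e-05). In each of these genes the CD48 groups were apart and the day-10 effect did not pass. Mecom, Fgd5 and Mllt3 were chosen after their values were seen. Of 20 HOX cluster and cofactor genes, 11 fell with CD48 (12.9% of all genes did). A difference called lower was found for 4 (4.41% of all genes), among them Hoxb5 at -1.40.

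The rises with CD48 alone included the progenitor antigen Cd34 and several myeloid genes. Cd34, a sialomucin that is low on adult HSCs and appears as they become progenitors, was at 367, 400.1, 332 and 422 CPM in CD48+ HPCs and 146, 99.4, 137 and 131 CPM in CD48- HSCs, with 132 to 184 CPM in Untreated and 91.0 to 179.8 CPM at day 10. All 14 HSC libraries were below all CD48+ libraries, and the difference was 1.84 ± 0.23 (adjusted p = 6.42e-05). It was chosen after its values were seen. Serpinb1a, an inhibitor of neutrophil proteases, was at 41.6, 37.1, 32.4 and 37.5 CPM in CD48+ HPCs against 3.89 to 9.14 CPM in CD48- HSCs, 5.02 to 11.5 CPM at day 10 and 5.77 to 14.1 CPM in Untreated, with a difference of 3.05 ± 0.41 (adjusted p = 0.000181). Slc22a3, an organic cation transporter, was at 64.8 to 128 CPM with CD48 and at 8.43 to 29.4 CPM without, and its difference was 2.79 ± 0.57 (adjusted p = 0.0057).

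Emilin2, an extracellular matrix glycoprotein, was at 134, 67.2, 68.3 and 71.3 CPM in CD48+ HPCs against 4.84 to 11.9 CPM in CD48- HSCs, and rose at day 10 too, from 2.41 to 9.16 CPM up to 8.24 to 17.8 CPM. Its difference was 2.12 ± 0.45 (adjusted p = 0.00701). Mpo, the myeloperoxidase of neutrophil granules, was at 331, 18.1, 113 and 188 CPM in CD48+ HPCs, while the highest of the other 14 libraries was Untreated replicate 3 at 1.67 CPM. Its CD48+ effect was 8.92 ± 0.88 (adjusted p = 4.02e-06). The difference, 8.71 ± 2.23 (adjusted p = 0.0223), lost its call without Untreated replicate 3 or 4, with an adjusted p of up to 0.205. Why was not tested. Of 24 myeloid factor and granule genes, 13 rose with CD48, and 8 rose and 2 fell at day 10, beside 14.1% of all genes that rose with CD48 and 18.2% at day 10. The difference was called for 3 of the 24 in each direction, with a median of 0.79. Over all genes 2.76% were called higher and 4.41% lower. The lower ones were Plac8, Gfi1 and Spi1, which rose at day 10 only. The highest macrophage marker sum was also that of a CD48+ HPC library (replicate 3), and 15 of 21 macrophage genes rose with CD48 beside 8 at day 10, with a median difference of 0.52.

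Lymphoid genes gave the highest list median, 1.54 for 17 genes tested of 32, with 8 called higher (2.76% of all genes were) and 1 lower, but most were near the detection limit. Il7r, the interleukin-7 receptor alpha chain, was at 6.51, 0, 4.27 and 3.80 CPM in CD48+ HPCs, at 0 in all CD48- HSC libraries, at most 0.138 CPM at day 10 and at 0, 3.45, 0.74 and 0 CPM in Untreated. Pax5, the B cell commitment factor, was at 2.84, 1.35, 0 and 0.112 CPM with CD48, at 0 in all CD48- HSC and day-10 libraries, and at 4.83, 10.8, 9.62 and 0 CPM in Untreated. Both transcripts were thus present in some Untreated and some CD48+ libraries and scarce in both 10-day HSC groups, and no fold is given against groups at 0. Il7r and Pax5 were chosen after their values were seen. The count fell from 8 to 5 without Untreated replicate 3, CD150+CD48-HSC replicate 4 or CD150+CD48+HPC replicate 1, and the list median was -0.23 with the uncultured HSCs of the culture experiment as the control of day 10.

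Most cell division genes rose in both effects, where 14.1% of all genes rose with CD48 and 18.2% at day 10. Whether the replication and mitosis lists differ from each other was not tested. All 60 DNA replication genes tested rose with CD48 (median 1.10) and 45 rose at day 10 (median 0.65). All but 1 had a difference above 0, with a median of 0.43, where 6488 of all 13209 genes were above 0. The difference was called higher for 7 and lower for 1, beside 2.76% and 4.41% of all genes. Of 73 mitosis genes, 68 rose with CD48 (median 1.15) and 70 at day 10 (median 1.72). For these, 65 differences were below 0, with a median of -0.55, and 8 were called lower. Over all 13209 genes, 6721 differences were below 0 and 4.41% were called lower. Mki67, the proliferation antigen, was at 369.9, 445, 258 and 306 CPM in CD48- HSCs, 706, 672, 665 and 695 CPM in CD48+ HPCs, 171, 269.9, 138 and 90.0 CPM in Untreated and 398 to 508 CPM (median 419) at day 10, with a difference of -0.41 ± 0.30 that did not pass (adjusted p = 0.452).

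**Figure D3:**
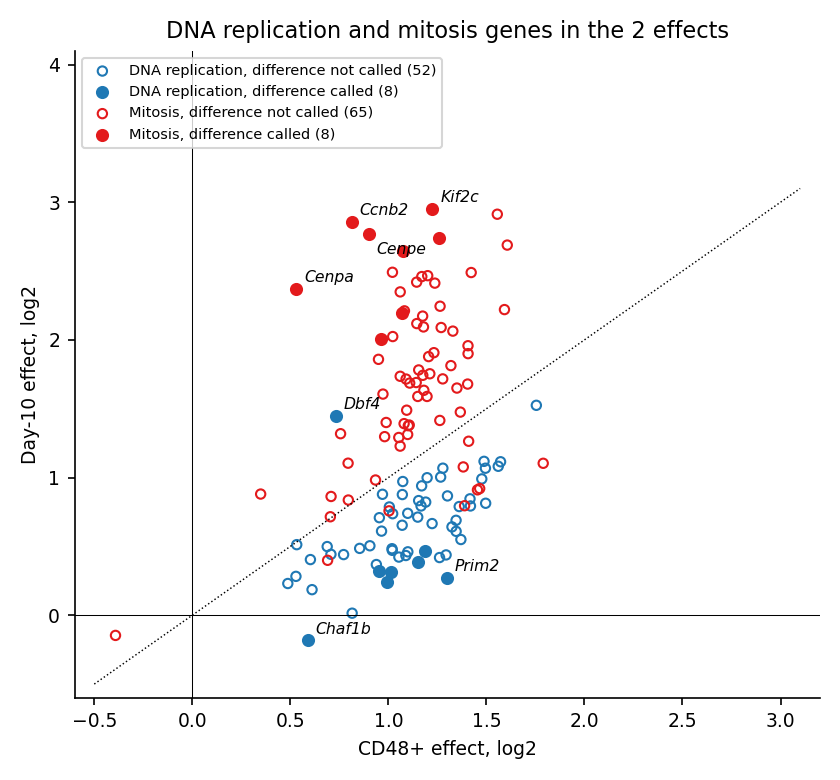
Each point is 1 gene of the DNA replication list (60 genes) or the mitosis list (73 genes), with its CD48+ effect on the x axis and its day-10 effect on the y axis (both log2), filled where the difference was called. Replication genes lie mostly below the dotted diagonal of equal effects (median difference 0.43) and mitosis genes mostly above it (median difference -0.55).

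Rfc2, a subunit of the clamp loader, was at 186, 169, 142 and 167 CPM in CD48+ HPCs and 90.7, 98.9, 75.6 and 78.5 CPM in CD48- HSCs, but only at 102 to 137 CPM (median 122) at day 10 beside 90.7, 103, 103 and 90.9 CPM in Untreated. Its difference was 0.63 ± 0.14 (adjusted p = 0.0107). Chaf1b, a subunit of chromatin assembly factor, was at 71.9 to 98.5 CPM with CD48, 42.2 to 71.9 CPM in CD48- HSCs, 67.6 to 74.4 CPM at day 10 and 66.6 to 88.5 CPM in Untreated, and differed by 0.77 ± 0.19 (adjusted p = 0.0171), a call lost without CD150+CD48+HPC replicate 1 (adjusted p = 0.051). Pcna, the sliding clamp, had a difference of 0.70 ± 0.18 (adjusted p = 0.0234), and its call was lost without any of 4 libraries (Untreated replicate 1, CD150+CD48-HSC replicates 1 and 3 and CD150+CD48+HPC replicate 1). It was chosen after its values were seen.

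Cenpe, the kinetochore kinesin, was at 8.42, 12.3, 6.29 and 4.29 CPM in Untreated and 41.5 to 74.1 CPM (median 49.9) at day 10, and at 50.2, 46.6, 38.7 and 38.8 CPM in CD48- HSCs and 73.6, 77.0, 91.0 and 83.8 CPM in CD48+ HPCs. Its difference was -1.87 ± 0.29 (adjusted p = 0.000753). Cenpa, the histone variant of centromeres, was at 6.58 to 19.1 CPM in Untreated and 61.4 to 82.7 CPM at day 10, with a difference of -1.84 ± 0.31 (adjusted p = 0.0012). In both genes CD48- HSCs already stood well above Untreated. The median of the replication list stayed between 0.28 and 0.58, and that of the mitosis list between -1.02 and -0.35, with each library left out in turn.

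The counts of calls in these lists rested on single libraries. The 7 replication genes became 14 without CD150+CD48-HSC replicate 2. They became 3 without Untreated replicate 1, Untreated replicate 2 or CD150+CD48-HSC replicate 3, 4 without CD150+CD48-HSC replicate 4 or CD150+CD48+HPC replicate 4, 2 without CD150+CD48-HSC replicate 1 and 1 without CD150+CD48+HPC replicate 1. The 8 mitosis genes became 33 without Untreated replicate 2, the Untreated library with the highest Mki67. They became 2 to 5 without any other library except 5-FU_10_days replicates 2 and 3 and CD150+CD48-HSC replicate 3, and 0 with uncultured HSCs as the control. Beside 14.1% of all genes that rose with CD48 and 18.2% at day 10, 36 of 57 ribosome biogenesis genes rose with CD48 and 11 at day 10, the latter close to the share of all genes. Their difference was called higher for 3, Myc, Rrp9 and Ddx56, where 2.76% of all genes were. Of 76 oxidative phosphorylation genes, 46 rose with CD48 and 59 at day 10, with a median difference of -0.13.

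**Figure D4:**
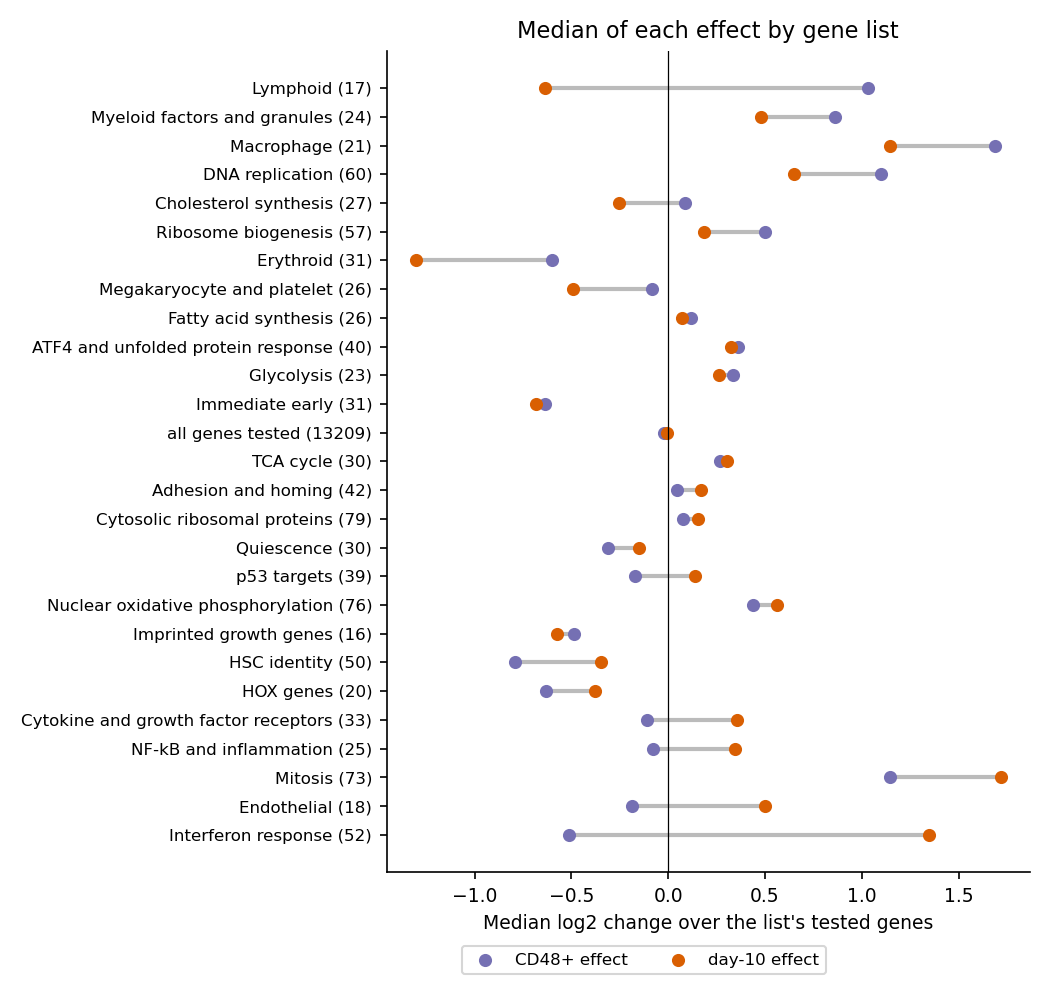
Median log2 change of the tested members of the larger gene lists (number in brackets) for the CD48+ effect and the day-10 effect, beside the same over all 13209 genes, ordered by the median difference. The stromal, mast cell, MHC class I, MHC class II and sort gate lists, with 3 to 11 tested genes, are not drawn. The interferon list at the bottom has the lowest median difference, -1.69, and the lymphoid list at the top the highest, 1.54.

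Of all lists, the interferon response genes had the most calls in 1 direction. All 52 genes tested had a difference below 0, with a median of -1.69, and 17 were called lower. At day 10, 37 of the 52 rose (median 1.35), and with CD48 1 fell (median -0.51), where 18.2% of all genes rose at day 10 and 4.41% had a difference called lower. The list's mean log2(CPM + 1) was 5.40 to 5.66 in Untreated libraries and 5.63 to 8.28 in 5-FU_10_days, where replicates 1 and 5 were lowest. In CD48- HSCs, also taken 10 days after 5-FU, it was 5.47 to 5.98, near Untreated, and in CD48+ HPCs 4.94 to 5.66. These levels cross the 2 experiments, and why the 2 day-10 HSC groups differed was not tested. Oas2, an oligoadenylate synthetase that senses double-stranded RNA, was at 61.6, 83.5, 40.3 and 31.9 CPM in Untreated and 136 to 833 CPM (median 275) at day 10, with 276, 111, 203 and 240.3 CPM in CD48- HSCs and 75.3, 125, 197 and 122 CPM in CD48+ HPCs. Day 10 was above Untreated in all libraries, and the CD48 groups overlapped. The difference was -3.51 ± 0.65 (adjusted p = 0.00282). Its neighbour Oas3 was at 67.0 to 93.4 CPM in Untreated and 140.4 to 1070.1 CPM (median 235) at day 10, with a difference of -2.93 ± 0.66 (adjusted p = 0.0107).

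Cxcl10, a chemokine induced by interferon, was at 0, 0.657, 0.74 and 0 CPM in Untreated and 5.18 to 502 CPM (median 43.6) at day 10, with 16.2, 0.494, 0.471 and 2.35 CPM in CD48- HSCs and 1.08, 0.719, 6.75 and 0.336 CPM in CD48+ HPCs. The highest value was that of 5-FU_10_days replicate 6. Its difference of -9.61 ± 2.32 (adjusted p = 0.016) was -7.41 without CD150+CD48-HSC replicate 1, where the call was lost (adjusted p = 0.181). Irf7, a transcription factor of the response, was at 22.3 to 41.6 CPM in Untreated and 45.0 to 382 CPM (median 77.3) at day 10, with a difference of -2.69 ± 0.71 (adjusted p = 0.0275), and lost its call without any of 4 libraries (Untreated replicates 3 and 4, CD150+CD48-HSC replicate 1 and CD150+CD48+HPC replicate 1). Ly6a, the gene of Sca-1, a stem cell antigen that interferon raises, was at 74.8 to 94.2 CPM in Untreated, 163 to 901 CPM (median 245) at day 10, 117 to 179 CPM in CD48- HSCs and 121 to 151 CPM in CD48+ HPCs, with a difference of -2.33 ± 0.51 (adjusted p = 0.008). Irf7 and Ly6a were chosen after their values were seen.

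**Figure D5:**
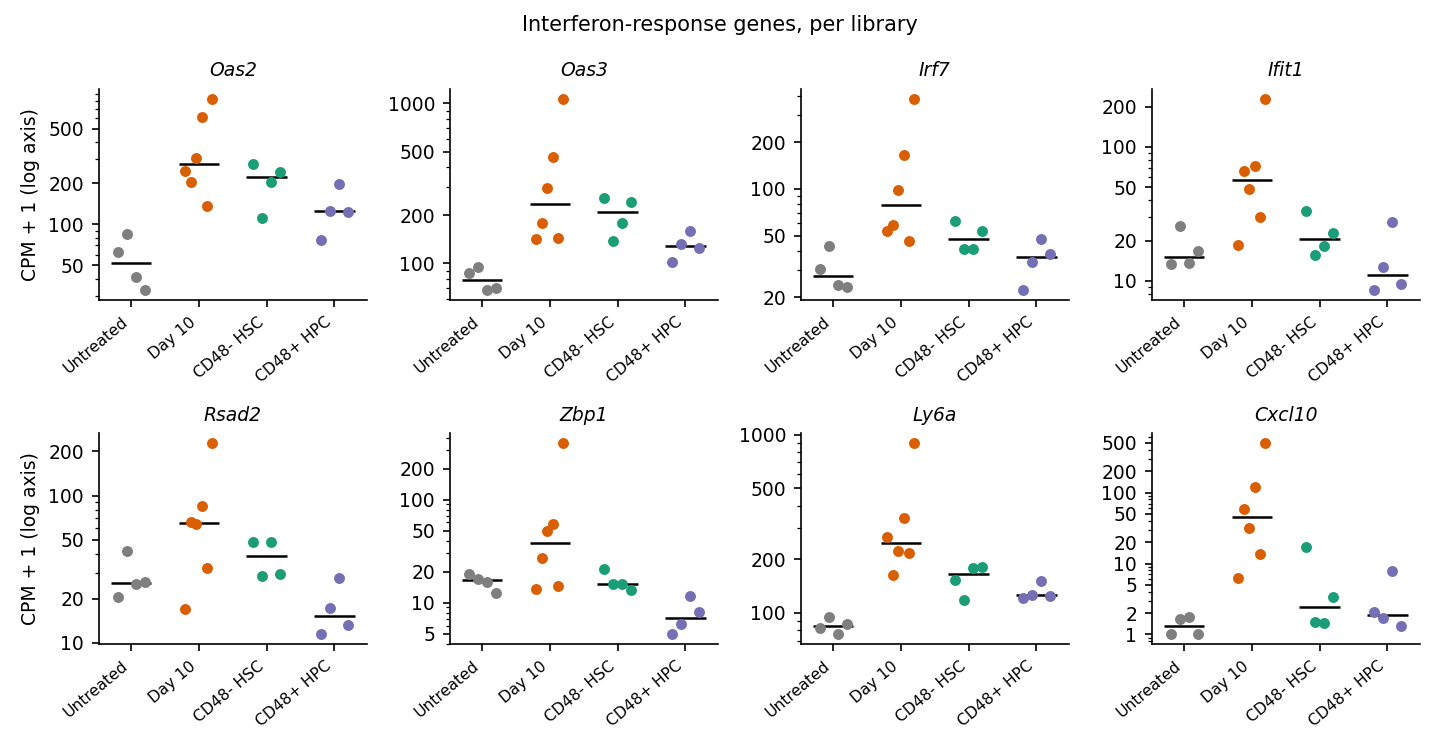
Expression of interferon response genes, as CPM + 1 on a log axis, with 1 point per library and a line at the median of each of the 4 groups. The median of day 10 lies above that of Untreated in every panel, with 1 day-10 library, replicate 6, at the top of each, and the median of CD48+ HPCs lies below that of CD48- HSCs.

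The 6 day-10 libraries were thus uneven. Without replicate 6 the list median was -1.02, and without replicates 4 and 6 together it was -0.88, while the count of calls was 24 and 19. Without other libraries the count fell from 17 to 6 (Untreated replicate 1), to 5 (Untreated replicate 3 or 4, CD150+CD48-HSC replicate 1 or CD150+CD48+HPC replicate 1), to 7 (CD150+CD48+HPC replicate 2 or 4) or to 10 (CD150+CD48-HSC replicate 4). It was also 5 without replicate 3 of each group, and 5 in intron reads.

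Promoters of 4 members of the interferon list with a difference called lower are printed, chosen because they hold the motif described here. Interferon-stimulated response elements are bound by complexes of STAT and IRF proteins, and their core was searched here as GAAANNGAAA on either strand, from 250 bases before to 50 after each start. Of 32851 promoters in the RefSeq table (GRCm38.p6), 1131 held it (3.44%), and of 10557 for genes tested here 401 did (3.8%). In the interferon list 24 of 40 genes with a promoter held it (60.0%): 10 of 14 genes with a difference called lower (71.4%) and 14 of 26 of the others (53.8%). The 4 called members without it in this window were Irf7, Oasl1, Ifi44 and Oasl2. A match is a description of the letters and not a shown binding site. The 4 sequences end at the base before the start and run 5′ to 3′ on the gene's strand, with the motif in capitals, at 104 and 85 bases before the start for Ifit1, 120 for Rsad2, 75 for Oas3 and 213 for Cxcl10.
Ifit1 (chr19:34640739-34640888, plus strand): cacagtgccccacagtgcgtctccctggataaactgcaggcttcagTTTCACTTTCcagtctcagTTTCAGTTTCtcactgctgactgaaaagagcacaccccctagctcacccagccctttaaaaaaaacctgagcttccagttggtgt
Rsad2 (chr12:26456453-26456602, minus strand): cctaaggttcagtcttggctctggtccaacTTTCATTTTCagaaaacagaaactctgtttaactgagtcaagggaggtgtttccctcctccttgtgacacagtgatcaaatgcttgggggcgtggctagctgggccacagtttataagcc
Oas3 (chr5:120777660-120777809, minus strand): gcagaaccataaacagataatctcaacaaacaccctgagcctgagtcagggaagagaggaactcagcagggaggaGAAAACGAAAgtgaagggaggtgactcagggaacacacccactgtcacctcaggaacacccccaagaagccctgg
Cxcl10 (chr5:92348890-92349119, minus strand): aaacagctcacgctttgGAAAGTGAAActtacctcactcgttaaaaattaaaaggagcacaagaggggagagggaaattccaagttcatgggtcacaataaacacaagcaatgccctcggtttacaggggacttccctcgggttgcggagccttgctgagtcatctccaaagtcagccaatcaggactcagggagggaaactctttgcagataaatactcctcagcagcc

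In Ifit1 and Rsad2 the element is read from the opposite strand (TTTCNNTTTC in the printed direction), and in Oas3 and Cxcl10 from the printed strand. Ifit1 and Rsad2, whose products inhibit viral translation and replication, were chosen after their values were seen. Both had a difference called lower, -2.90 for Ifit1 and -2.77 for Rsad2, and for both the call was lost without any of 8 libraries. Those were Untreated replicates 1, 3 and 4, CD150+CD48-HSC replicate 1, CD150+CD48+HPC replicates 1, 2 and 4 and, for Ifit1, CD150+CD48-HSC replicate 4 or, for Rsad2, replicate 3 of that group.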

How the data were processed

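Total exon reads per gene were analysed in 18 libraries of 4 groups. Per the file headers, the deposited files give each gene counts of 3 kinds: all exon reads, exon reads that map uniquely, and intron reads. The authors mapped to mm10, per the submitters' processing notes, while the sources used here name no aligner or counting program and do not state the use of strand. Counts were summed over entries of 1 gene identifier (1931 genes had more than 1 entry), and the NCBI gene table held 97.1% of the identifiers. Reads of near-identical genes can be split between copies by the counting. No column of other samples was used (0).

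One edgeR 4.0.16 fit in R 4.3.3 (filterByExpr by group, TMM, quasi-likelihood F tests, group means only) gave both effects and their difference, with Benjamini-Hochberg adjustment over all 13209 genes and a threshold of 0.05. Each SE is the absolute log2 value over the square root of F. CPM use TMM-scaled library sizes. The fit was also run on simulated counts with known changes placed in CD48+ HPCs only, drawn without outlying libraries such as those found here. The outcome of that run is not given. Tables and plots come from Python 3.11.15, pandas 2.3.3, NumPy 2.4.6, SciPy 1.17.1 and matplotlib 3.10.9. Counts of replicates differed by more than counting error in every pair (chi-square per degree of freedom 6.272 to 45.724).

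The comparison and the 31 gene lists were chosen with earlier results of these data known, so lists are given by counts and medians without a test. Genes were named by a rule among called genes that reached 5 log2 CPM in a group, without predicted genes and pseudogenes. They are the 10 largest differences in each direction, the 8 genes in each direction with the largest smaller effect among those moved oppositely, 2 members of each list with the smallest p, and Cd48, Slamf1, Procr and Mki67. A part is printed, and other genes are marked as chosen after their values were seen or are given only as members of a list. Alternatives were RLE size factors, no filter, DESeq2 1.42.0, each library left out, day-10 replicates 4 and 6 left out together, a fit of all 30 libraries, a block for the replicate number, uncultured HSCs as the control of day 10, unique exon reads and intron reads. Leaving out replicate 3 of each group was added after the data were seen. Each of these libraries had the highest sum of its group for at least 1 marker set, but other libraries with raised sums stayed in. Promoters are from a RefSeq table (GRCm38.p6). A few withheld genes are not reported here.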

Additional observations from a re-analysis of the deposited data

Results flagged for a closer look

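In groups of 4 or 6 libraries, the highest or lowest library stood apart from the others for 13 of 128 combinations of gene and group tested by Dixon's criterion, of which chance flags about 1 in 20. Cxcl10 did so in 3 groups, at 501.6 CPM in 5-FU_10_days replicate 6, 16.18 CPM in CD150+CD48-HSC replicate 1 and 6.753 CPM in CD150+CD48+HPC replicate 3. Zbp1, a sensor of viral nucleic acid and another interferon response gene, was at 354.1 CPM in 5-FU_10_days replicate 6. Nrg4 was at 63.82 CPM in 5-FU_10_days replicate 1 and at 17.28 CPM in CD150+CD48+HPC replicate 3, and Jag1 was at 138.1 CPM in 5-FU_10_days replicate 1. In CD150+CD48-HSC replicate 3, Wfdc17, a small secreted protein of activated macrophages, was at 173.6 CPM and Dpp4 at 25.23 CPM, above the other CD48- HSC libraries. Procr was at 61.09 CPM in CD150+CD48-HSC replicate 4, below the other CD48- HSC libraries. Emilin2 was at 133.7 CPM in CD150+CD48+HPC replicate 1 and Trps1 at 41.41 CPM in CD150+CD48+HPC replicate 3, each the highest of its group. Serpinb1a was at 11.54 CPM in 5-FU_10_days replicate 4.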

How the results depend on the processing

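Of the 947 differences called, DESeq2 called 943 again, with 559 higher in place of 365, RLE size factors 909, the fit without CD150+CD48+HPC replicate 1 603 of 946 tested there, the replicate block 474, the fit without replicate 3 of each group 429 of 946 and intron reads 293 of 900. With all 30 libraries in 1 fit 1453 were called, 621 of them higher, and 60 genes were opposite with CD48 higher. With uncultured HSCs as the control of day 10, 1829 were called (765 higher and 1064 lower), with 234 opposite genes (95 and 139) and a lymphoid median of -0.23. Intron reads gave 578 (210 and 368), 1598 for the CD48+ effect, 2805 for the day-10 effect and 58 opposite genes (19 and 39), and Rpl7a, a ribosomal protein gene, turned to 0.021 (adjusted p = 0.985). Without replicate 3 of each group, 480 were called (173 and 307), with 2044 for the CD48+ effect, 63 opposite genes (17 and 46), and medians of 0.025 for HSC identity and 0.017 for p53 targets. Without day-10 replicates 4 and 6, 23 genes were opposite with CD48 higher.

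With 1 library left out, the difference was called for 618 to 989 genes (209 to 401 higher and 409 to 617 lower), the CD48+ effect for 2323 to 3786, the day-10 effect for 3657 to 4764, and 78 to 128 genes were opposite (23 to 45 with CD48 higher and 55 to 96 with CD48 lower). Of 85 named genes called, 64 kept the call without each library and 21 lost it without at least 1. Over all named genes and settings, 2162 values kept direction and side of the threshold, 261 lost the call, 2 gained one and 1 turned. The replicate number as a block gave 525 calls (157 and 368), 2912 for the day-10 effect and 20 opposite genes with CD48 higher. The numbers mark no shared source in the labels, same-numbered libraries correlated at -0.186 to 0.139, and the own number was best in 2 of 8. Why the counts moved was not tested, beyond fewer samples or genes where libraries or reads were left out. At 100 cells per library, genes of a few CPM rest on few molecules.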

Other observations

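Over all genes 4.41% had a difference called lower and 2.76% called higher. Of 39 p53 target genes, 6 were called lower and 1 higher, with a median of -0.11. Zmat3, an RNA-binding p53 target, was at 18.2, 19.1, 13.9 and 14.9 CPM in Untreated and 30.2 to 42.4 CPM (median 34.4) at day 10, and at 30.2, 38.9, 56.0 and 31.2 CPM in CD48- HSCs and 27.9, 23.8, 32.7 and 26.7 CPM in CD48+ HPCs. The CD48 groups overlapped, and its difference was -1.60 ± 0.24 (log2, SE; edgeR adjusted p = 0.000519). Apaf1, the scaffold of the apoptosome, was at 43.7 to 54.1 CPM in Untreated, 73.6 to 115 CPM at day 10, 73.9 to 92.3 CPM in CD48- HSCs and 96.0 to 99.6 CPM in CD48+ HPCs, with a difference of -0.73 ± 0.16 (adjusted p = 0.007). Of 25 NF-kB and inflammation genes, 3 were called lower, Socs3, Bcl3 and Nfkb1, and each rose at day 10 only. In the megakaryocyte and platelet list of 26 genes, 3 were called in each direction, with Selp, Vwf and Cd9 lower. The integrin Itga2b (CD41) was at 68.3, 65.8, 34.1 and 54.9 CPM in CD48+ HPCs and 23.8 to 34.4 CPM in CD48- HSCs, with a difference of 1.64 ± 0.43 (adjusted p = 0.0272) that lost its call without any of 4 libraries (Untreated replicate 1, CD150+CD48-HSC replicate 4 and CD150+CD48+HPC replicates 1 and 2).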
